A study of Homo sapiens with 4 samples.

Results

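Collagens are the rod-like proteins of the extracellular matrix, each built from α chains wound into a triple helix, and every chain has its own gene. Fibrillar collagens (types I, III and V among them) form the fibrils of connective tissue, type IV collagen forms the network of basement membranes, and the fibril-associated collagens with interrupted triple helices (FACITs) sit on the surface of fibrils. In breast tumors collagens are made by fibroblasts and, to a varying degree, by tumor cells that have taken on mesenchymal features.

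The collagen chain genes were taken as all genes of the count table whose symbol has the form COL, a type number, A and a chain number. There were 39 of them among 31681 genes, and 5 other known human chains were not analysed here. By class, 10 were fibrillar, 6 basement membrane (type IV), 7 FACIT and 16 of other kinds. Their levels were compared between 2 populations of BT549 cells, an established triple-negative breast cancer (TNBC) line. The cells had been separated by flow cytometry on surface neuropilin-2 (NRP2), a receptor for VEGF and semaphorins, into an NRP2-high and an NRP2-low population, with 2 RNA-seq libraries of each. The labels name no drug, irradiation or genetic change for any of the 4 libraries, and the sort on NRP2, whose gates are not described, is the only difference they name between the populations. Whether replicate libraries stem from separate cultures or separate sorts is not given in the sources used here, so each p-value reflects the spread among these 4 samples alone and that spread may be technical.

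The libraries held 18165923 to 20585102 counts, and 3 counts in a library corresponded to 0.151 to 0.163 counts per 1000000 (CPM), which sets the lowest level that could be read. *NRP2*, the gene of the sorted protein, had 2588 and 2839 counts in the NRP2-high libraries and 195 and 166 in the NRP2-low libraries, in the direction of the labels. The epithelial markers *EPCAM* and *CDH1* had at most 5 counts in any library, and the mesenchymal marker *VIM* had 23658 to 27183. The summed level of 8 epithelial markers was 19.5 and 20.5 TPM (transcripts per 1000000) in the NRP2-high libraries and 46.9 and 47.4 TPM in the NRP2-low libraries. Its members moved in opposite directions: *KRT19* was at 16.6 and 18.4 TPM in NRP2-high and 0.47 and 0.58 TPM in NRP2-low libraries, and *KRT5* at 1.5 and 1.36 TPM against 38.5 and 39.4 TPM. *KRT8*, *KRT14* and *KRT18* were lower in NRP2-high cells, at 73 counts or fewer. Over 7 mesenchymal markers the sum was 1370 to 1430 TPM in NRP2-high and 1350 TPM in both NRP2-low libraries. Leukocyte and endothelial markers had at most 12 and 14 counts. Transcripts of mitochondrial genes took 6.92% and 9.16% of the counts in the NRP2-high libraries and 5.57% and 5.85% in the NRP2-low libraries. The part of the epithelial marker and mitochondrial differences in the results below was not tested.

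Most collagen chain genes with enough reads were higher in NRP2-high cells, and a smaller set was lower. Of the 39 genes, 24 had enough counts to be tested (edgeR's quasi-likelihood test, adjusted p under 0.05), and NRP2-high cells had higher levels of 17 and lower levels of 6, while 1 missed the threshold. The populations differed widely in their transcriptomes: 56.5% of the 15083 tested genes passed in either direction, with 28.9% higher and 27.7% lower. The collagen chains stood at 70.8% higher, and their median log2 fold change was 1.0, beside -0.01 for all tested genes. The filter can keep a gene through the population where it is high, so these figures describe the 24 tested genes and not all 39. Calls with at least a 2-fold change were made for 16 of the 24 chains, 12 higher and 4 lower, and for 16.3% of all tested genes. In a stricter test against a 1.5-fold change, 16 of the 24 passed, beside 18.6% of all tested genes. In 23 of the 24, the NRP2-high and NRP2-low libraries did not overlap in CPM, which was also the case for 78.2% of all tested genes. In bulk RNA, more cells that make a chain and more of its RNA per cell cannot be told apart.

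**Figure D1:**
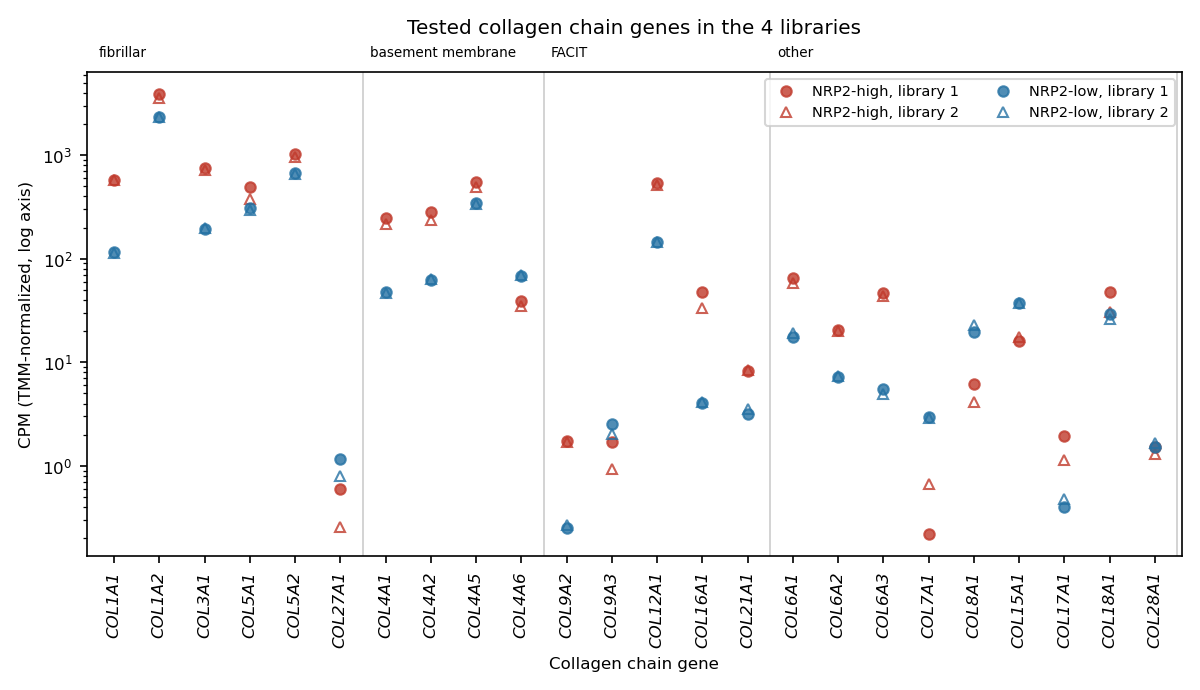
Level of each of the 24 tested collagen chain genes in each library (y axis, TMM-normalized CPM, log axis), with genes on the x axis by class, red for NRP2-high and blue for NRP2-low, circles for library 1 and triangles for library 2. The red and blue points lie apart for 23 genes and mix for *COL28A1*, and blue lies above red for *COL27A1*, *COL4A6*, *COL9A3*, *COL7A1*, *COL8A1* and *COL15A1*.

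Per transcript length, the collagen output of BT549 cells was dominated by fibrillar chains in both populations. The summed TPM of all collagen chains was 2990 and 2483 in the NRP2-high libraries and 1626 and 1608 in the NRP2-low libraries, a ratio of means of 1.69. Both NRP2-high libraries lay above both NRP2-low libraries, and the NRP2-high libraries differed more from each other. Fibrillar chains supplied 81.3% and 81.9% of the collagen TPM in NRP2-high and 83.5% and 83.3% in NRP2-low cells. *COL1A2* alone supplied 40.7% and 40.4% of it in NRP2-high and 47.7% in both NRP2-low libraries. *COL5A2* came next in both populations, with 16.0% and 16.4% in NRP2-high and 20.5% and 20.3% in NRP2-low cells. The share of *COL3A1* was 12.7% and 13.3% in NRP2-high and 6.48% and 6.70% in NRP2-low cells. FACIT chains supplied 5.87% and 5.91% of the collagen TPM in NRP2-high and 2.97% and 3.01% in NRP2-low cells. These shares do not overlap between populations, but with 2 libraries against 2 an exact permutation test cannot give a p below 0.33, so none is reported for them.

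**Figure D2:**
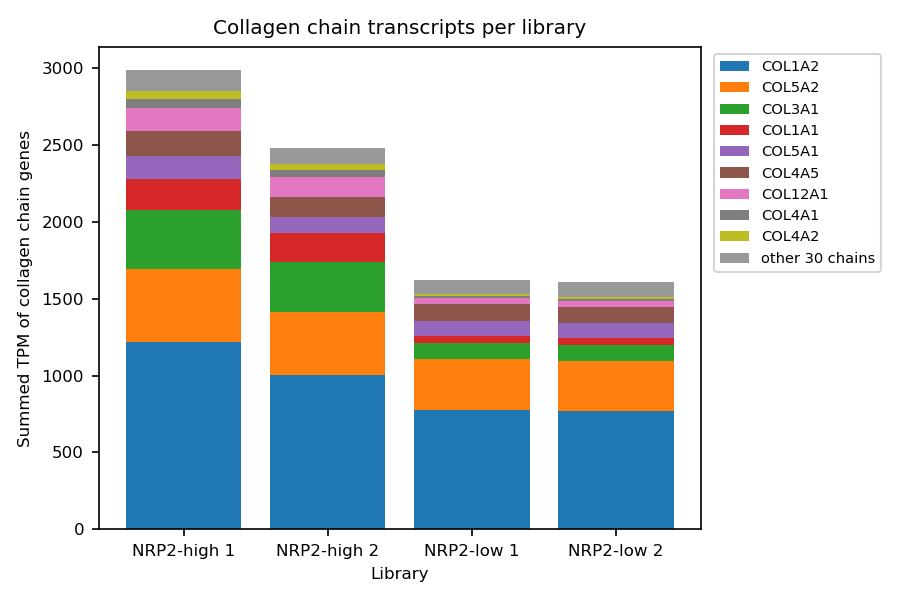
Summed TPM of the 39 collagen chain genes in each library (y axis), stacked by gene, with 9 genes shown singly and the other 30 together. The NRP2-high bars reach 2990 and 2483 and the NRP2-low bars 1626 and 1608, with *COL1A2* the largest segment in every bar.

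Among fibrillar chains, *COL1A1* and *COL3A1* were several-fold higher in NRP2-high cells, while *COL1A2*, *COL5A1* and *COL5A2* were about 1.5-fold higher. Of 6 tested fibrillar genes, 5 (83.3%) were higher and 1 lower, beside 28.9% and 27.7% of all tested genes. The 6 genes had a median log2 fold change of 0.63. Type I collagen, the main protein of tendon, bone and scar, is mostly a trimer of a pair of α1 chains with an α2 chain. *COL1A1* (ENSG00000108821.13, hg38 chr17:50183289-50201632, minus strand), which encodes α1(I), was at 574 and 575 CPM in the NRP2-high libraries and 115 and 114 CPM in the NRP2-low libraries. Replicates were nearly equal and the populations were far apart, with a log2 fold change of 2.33 (standard error 0.05, edgeR adjusted p = 1.11e-10), or 5.02-fold. *COL1A2* (ENSG00000164692.17, chr7:94394561-94431232, plus strand), which encodes α2(I), was at 3898 and 3571 CPM in NRP2-high and 2352 and 2329 CPM in NRP2-low libraries. The populations did not overlap here either, but the log2 fold change was 0.67 (standard error 0.06, edgeR adjusted p = 4.67e-06).

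*COL3A1* (ENSG00000168542.14, chr2:188974320-189012746, plus strand) encodes the only chain of type III collagen, which is found with type I in skin, vessels and granulation tissue. It was at 746 and 718 CPM in NRP2-high and 195 and 200 CPM in NRP2-low libraries, a log2 fold change of 1.89 (standard error 0.05, edgeR adjusted p = 4.8e-10). *COL5A2* (ENSG00000204262.12, chr2:189031896-189225312, minus strand) lies beside it and encodes a chain of type V collagen, which starts type I fibrils and limits their width. *COL5A2* was at 1025 and 968 CPM in NRP2-high and 675 and 661 CPM in NRP2-low libraries. *COL5A1* (ENSG00000130635.15, chr9:134641774-134844843, plus strand), which encodes the other main type V chain, was at 493 and 382 CPM in NRP2-high and 306 and 295 CPM in NRP2-low libraries. Both type V genes were thus higher without overlap, with log2 fold changes of 0.58 for *COL5A2* (standard error 0.05, edgeR adjusted p = 4.33e-06) and 0.54 for *COL5A1* (standard error 0.09, edgeR adjusted p = 0.000547). The value of *COL5A1* was 0.35 without NRP2-high library 1, and its call was lost on the TPM and FPKM scales. *COL27A1*, a fibrillar collagen of cartilage, had 11 and 5 counts in NRP2-high and 23 and 15 in NRP2-low libraries (log2 fold change -1.20, edgeR adjusted p = 0.0463). Its value ran from -1.89 without NRP2-high library 1 to -0.70 without NRP2-high library 2. Its call was lost without NRP2-high library 2, without either NRP2-low library, with DESeq2 (adjusted p = 0.306) and on the TPM and FPKM scales.

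**Figure D3:**
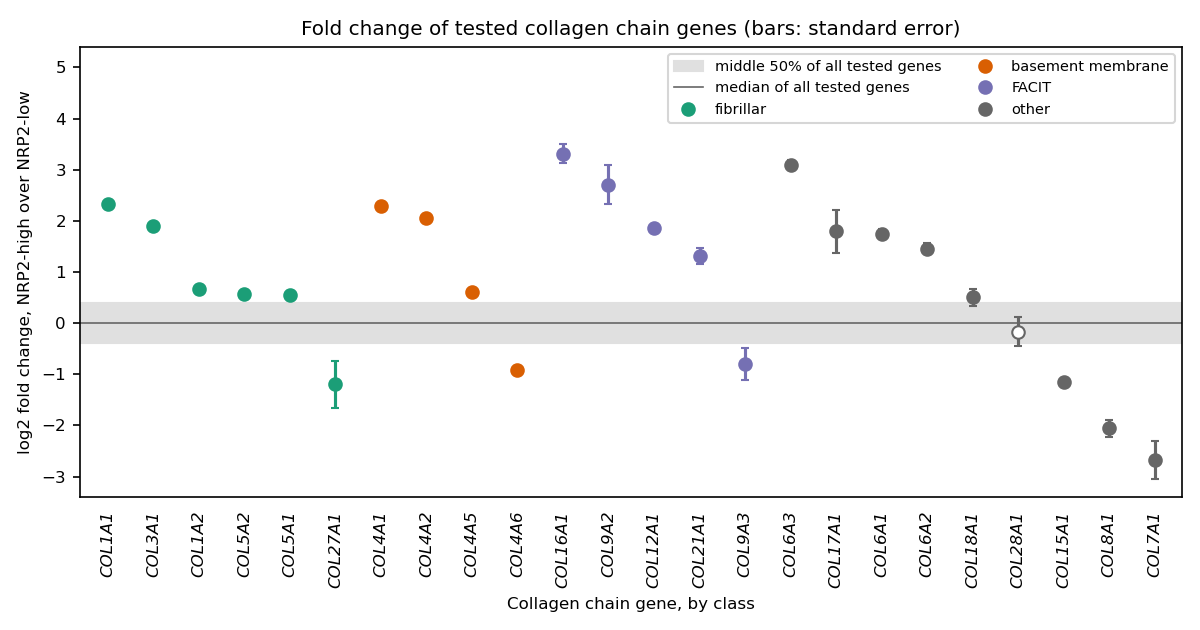
Log2 fold change of NRP2-high over NRP2-low (y axis) for the 24 tested collagen chain genes (x axis, colored by class), with bars for the standard error, a grey band for the middle 50% of all tested genes (-0.39 to 0.39) and an open circle for *COL28A1*, which did not pass. Points run from -2.68 (*COL7A1*) to 3.31 (*COL16A1*), and *COL28A1* is the only one inside the band.

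Type IV genes are arranged in head-to-head pairs, in which the 2 genes of a pair are read away from a shared stretch of DNA. *COL4A1* and *COL4A2* encode the chains of the α1α1α2 network found in nearly all basement membranes, and *COL4A5* and *COL4A6* encode those of the α5α5α6 network of some epithelia and of smooth muscle. Part of the stretch between the gene starts is shown for both pairs because 1 pair moved together and the other apart in the comparison. Both sequences come from the RefSeq promoter tables for GRCh38.p14, are written 5′ to 3′ on the plus strand and leave out exons annotated in GENCODE v44. In the annotation of the deposited counts the *COL4A1* model reaches to 110307233, inside the first sequence. The capitals mark the CCAAT box and the GC box GGGCGG, each searched on both strands.
COL4A1/COL4A2, chr13:110307158-110307257: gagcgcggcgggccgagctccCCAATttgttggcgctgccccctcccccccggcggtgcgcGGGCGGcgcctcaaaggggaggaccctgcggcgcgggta
COL4A6/COL4A5, chrX:108439588-108439837: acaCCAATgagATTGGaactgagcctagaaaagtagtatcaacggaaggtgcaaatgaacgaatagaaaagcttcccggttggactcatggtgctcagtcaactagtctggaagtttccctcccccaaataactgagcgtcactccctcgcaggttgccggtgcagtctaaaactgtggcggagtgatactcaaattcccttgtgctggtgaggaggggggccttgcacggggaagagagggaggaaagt
In each line the first gene is read to the left and the second to the right. The RefSeq starts lie 127 bases apart for *COL4A1* and *COL4A2* and 380 bases apart for *COL4A6* and *COL4A5*. The first printed stretch, of 100 bases, is 78.0% G and C, and holds 1 CCAAT box and 1 GC box. The second, of 250 bases, is 51.2% G and C and holds 2 CCAAT boxes, 1 on each strand, and no GC box. The TATA box TATAAA is in neither printed stretch. Neither covers the whole distance between the starts, and at least 1 RefSeq promoter window of *COL4A6* does hold GGGCGG. The lack of a GC box therefore holds for the printed bases alone.

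The motifs are common in promoters at large. Windows from 250 bases before to 50 after a RefSeq start were matched for 30 of the 39 collagen chain genes, 41 windows in all. CCAAT was in 12 of these 41 windows (29.3%) and in 34.6% of 35116 promoter windows of the table. GGGCGG was in 23 of 41 (56.1%, beside 45.0%) and TATAAA in 8 of 41 (19.5%, beside 11.5%). A match to these letters describes the window and is no sign that a factor binds there. *COL1A1*, *COL1A2*, *COL2A1*, *COL3A1*, *COL5A2*, *COL6A1*, *COL8A1*, *COL9A3* and *COL20A1* are not included in these counts.

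The first pair rose together in NRP2-high cells. *COL4A1* (ENSG00000187498.15, chr13:110148963-110307233) was at 248 and 216 CPM in NRP2-high and 47.6 and 46.6 CPM in NRP2-low libraries, and *COL4A2* (ENSG00000134871.18, chr13:110305812-110513209) was at 286 and 235 CPM and at 62.0 and 64.0 CPM. The populations were well apart for both, with log2 fold changes of 2.30 (standard error 0.07, edgeR adjusted p = 1.29e-09) and 2.05 (standard error 0.09, edgeR adjusted p = 8.51e-09). The 2 gene models overlap at their starts on opposite strands, and whether the counting used strand is not given in the sources used here. Their TPM ratio stayed near 1, at 1.14 and 1.20 in NRP2-high and 1.0 and 0.95 in NRP2-low libraries.

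The second pair moved in opposite directions. *COL4A5* (ENSG00000188153.13, chrX:108439844-108697541), whose mutation causes X-linked Alport syndrome, was at 547 and 495 CPM in NRP2-high and 343 and 341 CPM in NRP2-low libraries. *COL4A6* (ENSG00000197565.15, chrX:108155607-108439472) was at 38.69 and 34.96 CPM in NRP2-high and 68.67 and 70.36 CPM in NRP2-low libraries. Neither gene overlapped between populations, with a log2 fold change of 0.61 for *COL4A5* (standard error 0.06, edgeR adjusted p = 5.34e-06) and -0.92 for *COL4A6* (standard error 0.07, edgeR adjusted p = 1.28e-06). *COL4A6* has a second RefSeq start, and the deposited counts do not separate transcripts by start. *COL4A3* and *COL4A4*, which encode the chains of the glomerular network with α5, had at most 17 counts in any library and were not tested. By summed TPM the 6 type IV genes stood at 285 and 227 in NRP2-high and 158 and 157 in NRP2-low libraries. *COL4A5* had the highest level per length of the 6 in every library, and the ratio of *COL4A1* to *COL4A5* was 0.37 and 0.35 in NRP2-high and 0.11 in both NRP2-low libraries.

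Most tested FACIT chains were higher in NRP2-high cells. Of the 5 genes tested, 4 (80.0%) were higher and 1 lower, beside 28.9% and 27.7% of all tested genes. The 5 genes had a median log2 fold change of 1.85. *COL16A1* (ENSG00000084636.17, chr1:31652247-31704319, minus strand), which encodes a collagen found near fibrils and microfibrils in skin and cartilage, was at 48.2 and 33.5 CPM in NRP2-high and 4.07 and 4.15 CPM in NRP2-low libraries. The NRP2-high libraries differed by 886 against 649 counts, yet both lay far above 81 and 78, and the log2 fold change was 3.31 (standard error 0.18, edgeR adjusted p = 9.04e-08). Without NRP2-high library 1 it was 3.03. *COL12A1* (ENSG00000111799.20, chr6:75084326-75205907, minus strand) encodes the chain of type XII collagen, which binds type I fibrils in tendon and tumor stroma. It was the most abundant FACIT gene, at 541 and 517 CPM in NRP2-high and 146 and 147 CPM in NRP2-low libraries, with a log2 fold change of 1.85 (standard error 0.05, edgeR adjusted p = 5.26e-10) and no overlap.

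*COL21A1*, a FACIT gene expressed in vessel walls, had 151 and 163 counts in NRP2-high and 63 and 66 in NRP2-low libraries (log2 fold change 1.32, edgeR adjusted p = 3.61e-05). The type IX chains, known from cartilage, went in opposite directions at low counts. *COL9A2* had 32 and 33 counts in NRP2-high and 5 in both NRP2-low libraries (log2 fold change 2.71, edgeR adjusted p = 0.000125). *COL9A3* had 31 and 18 counts in NRP2-high and 50 and 38 in NRP2-low libraries, a log2 fold change of -0.80 (edgeR adjusted p = 0.0487). Its value ran from -1.28 without NRP2-high library 1 to -0.43 without NRP2-high library 2. Its call was lost without NRP2-high library 2, without either NRP2-low library, with DESeq2 (adjusted p = 0.273) and on the TPM and FPKM scales. *COL19A1* and *COL20A1* had at most 3 counts in any library.

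The beaded-filament chains of type VI collagen, which form microfibrils that link cells to the surrounding matrix and in their classical form join α1, α2 and α3, were all higher where tested. *COL6A1* (chr21:45981737-46005050, plus strand) was at 65.2 and 58.6 CPM in NRP2-high and 17.5 and 19.3 CPM in NRP2-low libraries. *COL6A2* (chr21:46098097-46132849, plus strand) was at 20.3 and 19.9 CPM in NRP2-high and 7.23 and 7.44 CPM in NRP2-low libraries. *COL6A3* (chr2:237324003-237414207, minus strand), the long α3 chain whose end is cleaved off as endotrophin, was at 47.0 and 43.4 CPM in NRP2-high and 5.572 and 4.995 CPM in NRP2-low libraries. In each of the 3 genes both NRP2-high libraries lay above both NRP2-low libraries by more than 2-fold. The log2 fold change was 1.75 for *COL6A1* (standard error 0.09, edgeR adjusted p = 3.61e-08), 1.45 for *COL6A2* (standard error 0.11, edgeR adjusted p = 9.91e-07) and 3.09 for *COL6A3* (standard error 0.11, edgeR adjusted p = 2.13e-09). *COL6A6* had at most 3 counts.

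The remaining chains held most of the genes that were lower in NRP2-high cells by at least 2-fold. Of the 9 tested genes outside the fibrillar, type IV and FACIT classes, 5 (55.6%) were higher and 3 lower. Among all tested genes 28.9% were higher and 27.7% lower. The median log2 fold change of the 9 genes was 0.50, the value of *COL18A1*, and fell to 0.15 without NRP2-high library 1. *COL7A1* (chr3:48564073-48595267, minus strand), which encodes the anchoring fibrils that hold the epidermal basement membrane to the dermis, had 4 and 13 counts in NRP2-high and 59 and 54 in NRP2-low libraries. Its log2 fold change was -2.68 (standard error 0.38, edgeR adjusted p = 0.000114). The value was -2.10 without NRP2-high library 1 and -3.70 without NRP2-high library 2. *COL8A1* (chr3:99638475-99796733, plus strand), a short-chain collagen of vessel walls and of Descemet's membrane in the cornea, was at 6.15 and 4.18 CPM in NRP2-high and 19.8 and 23.2 CPM in NRP2-low libraries. The populations were apart by more than 3-fold, with a log2 fold change of -2.06 (standard error 0.16, edgeR adjusted p = 1.45e-06).

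*COL15A1* and *COL18A1* encode the multiplexins, basement membrane collagens that carry glycosaminoglycan chains and end in a domain released as an inhibitor of angiogenesis (endostatin in the case of *COL18A1*). *COL15A1* (chr9:98943179-99070792, plus strand) was at 16.2 and 17.5 CPM in NRP2-high and 37.8 and 37.1 CPM in NRP2-low libraries. It was lower in both NRP2-high libraries, with a log2 fold change of -1.15 (standard error 0.09, edgeR adjusted p = 8.53e-07). *COL18A1* (chr21:45405137-45513720, plus strand) was at 48.1 and 30.8 CPM in NRP2-high and 29.2 and 26.3 CPM in NRP2-low libraries. Here NRP2-high library 2 lay close to NRP2-low library 1, and the log2 fold change of 0.50 (standard error 0.16, edgeR adjusted p = 0.0226) lost its call without NRP2-high library 1 (0.15, adjusted p = 0.112), without NRP2-low library 2 (0.43, adjusted p = 0.0719) and on the TPM and FPKM scales. *COL17A1*, the transmembrane collagen of hemidesmosomes, had 36 and 22 counts in NRP2-high and 8 and 9 in NRP2-low libraries (log2 fold change 1.79, edgeR adjusted p = 0.00344). *COL28A1* had 28 and 25 counts in NRP2-high and 30 and 31 in NRP2-low libraries and did not pass (log2 fold change -0.17, standard error 0.28, edgeR adjusted p = 0.641).

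The 15 genes that did not pass the filter had at most 17 counts in any library, and 9 of them never had more than 3. They were *COL2A1*, *COL4A3*, *COL4A4*, *COL5A3*, *COL6A6*, *COL8A2*, *COL10A1*, *COL11A2*, *COL13A1*, *COL19A1*, *COL20A1*, *COL23A1*, *COL24A1*, *COL25A1* and *COL26A1*, among them the main collagens of cartilage (*COL2A1*) and of its growth zone (*COL10A1*). None was at 0 in every library. *COL25A1*, a transmembrane collagen of neurons, had 13 and 7 counts in NRP2-high and 1 in each NRP2-low library. The ratio of its pooled counts per effective library size was 10.3, the highest of the 15, and it was named for that reason. Counting error alone gave it a 95% interval from 2.49 to 90.5 by the Clopper-Pearson method, which leaves out the spread between replicates. For the other 14, differences of a few counts could not be read at this depth.

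The ratio of chains that assemble into 1 protein, read within each library on the TPM scale, differed between the populations for some pairs and overlapped for another. The ratio of *COL1A1* to *COL1A2* was 0.17 and 0.18 in NRP2-high and 0.056 in both NRP2-low libraries, 3.15 times as high on average, and *COL1A1* was below *COL1A2* in every library. The ratio of *COL4A5* to *COL4A6* was 11.1 in both NRP2-high libraries and 3.91 and 3.79 in NRP2-low libraries. That of *COL6A3* to *COL6A2* was 0.64 and 0.60 in NRP2-high and 0.21 and 0.18 in NRP2-low libraries. For these 3 pairs the populations were far apart beside the replicate difference. The ratio of *COL5A1* to *COL5A2* did overlap, at 0.32 and 0.26 in NRP2-high and 0.30 in both NRP2-low libraries. These ratios carry no test, because 2 libraries against 2 allow no exact p below 0.33. They do not depend on the scaling between libraries, since both chains are read in the same one, but they rest on the gene lengths in the deposited table.

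**Figure D4:**
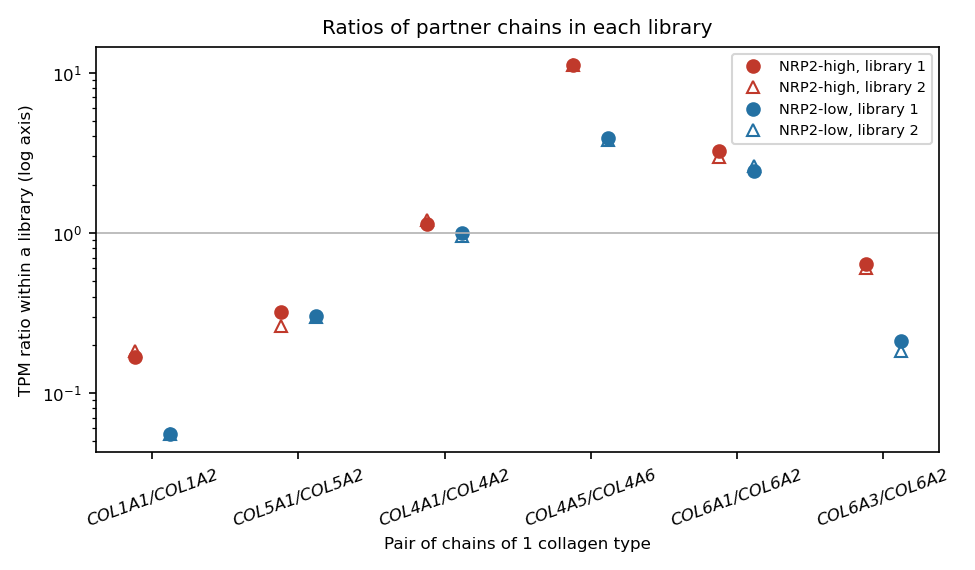
TPM ratio of partner chains within each library (y axis, log axis, line at 1) for 6 pairs of chains (x axis), with red for NRP2-high, blue for NRP2-low, circles for library 1 and triangles for library 2. *COL1A1*/*COL1A2*, *COL4A5*/*COL4A6* and *COL6A3*/*COL6A2* separate the populations by about 3-fold, and *COL5A1*/*COL5A2* overlaps (0.32 and 0.26 against 0.30).

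Tested genes of other kinds that start within 500 kb of a called collagen gene were set beside it as a description. For the 17 called collagen genes with at least 3 such neighbors, the neighbors' median log2 fold change lay between -0.34 and 0.53. The other 6 had 1 or 2 neighbors each, with medians that reached -2.32 (*COL5A1*, 2 neighbors) and -0.59 (*COL21A1*, 1 neighbor). Among the 17, around the 13 higher genes this median was above 0 at 6 loci, and around the 4 lower genes it was below 0 at 3. *COL1A1* had 15 such neighbors with a median of 0.03, beside its own 2.33. The 4 neighbors of *COL4A1* and *COL4A2* had a median of -0.18 and none of them was called higher, and of the 15 around *COL6A1* 7 were lower and 1 was higher. *COL6A1* and *COL6A2* share most of their neighbors, so these loci are not all separate, and a median over several genes is not comparable with the value of a single gene.

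Genes that hydroxylate, glycosylate and fold collagen chains in the endoplasmic reticulum were mostly higher in NRP2-high cells. Of 18 tested, 15 were higher, none was lower and 3 did not pass (*PLOD3*, *P3H3* and *PPIB*), with a median log2 fold change of 0.50. That is 83.3% higher, beside 28.9% of all tested genes. In the main fit *PLOD3* was the only gene of the list below 0 (-0.09, edgeR adjusted p = 0.157), and at an unadjusted p under 0.05 edgeR, DESeq2 and limma-voom each had 0 lower genes. On both TPM scales 3 genes of the list lay below 0. On the TPM and FPKM scales *PLOD3* was called lower. The called genes included *SERPINH1*, the collagen-specific chaperone HSP47, with 9604 and 9959 counts in NRP2-high and 5026 and 4869 in NRP2-low libraries (log2 fold change 1.02, standard error 0.05, edgeR adjusted p = 2.67e-08). *P3H2*, a prolyl 3-hydroxylase that acts on type IV collagen, rose by 1.19, the prolyl isomerase *FKBP14* by 1.46 and the collagen galactosyltransferase *COLGALT2* by 2.56 on the log2 scale. These 4 had the smallest adjusted p of the list. None overlapped between populations, which that choice made likely and which was also the case for 78.2% of all tested genes. In the test against a 1.5-fold change, 8 of the 18 were higher, beside 9.55% of all tested genes.

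The secretion and processing genes were mixed. Of 13 tested, 8 (61.5%) were higher and 4 lower, beside 28.9% and 27.7% of all tested genes, with a median log2 fold change of 0.67. *MIA3*, which encodes the TANGO1 receptor that loads procollagen at endoplasmic reticulum exit sites, rose by 1.62 (edgeR adjusted p = 3.14e-09), the transcription factor gene *CREB3L1*, whose product drives secretory and collagen genes, by 1.92 (edgeR adjusted p = 2.75e-09) and the COPII coat gene *SEC23A* by 0.80 on the log2 scale. *ADAMTS2*, the main procollagen I N-proteinase, went the other way, with 22 and 15 counts in NRP2-high and 373 and 356 in NRP2-low libraries. Its log2 fold change of -4.25 (standard error 0.18, edgeR adjusted p = 1.11e-08) was larger in size than that of any collagen chain. The other ADAMTS genes of the list did not share this fall. *ADAMTS14* was higher (0.975, edgeR adjusted p = 5.27e-05), at 16.3 and 14.4 CPM in NRP2-high and 8.13 and 7.49 CPM in NRP2-low libraries. *ADAMTS3* did not pass (-0.38, edgeR adjusted p = 0.126). Of 4 tested lysyl oxidase genes, which cross-link fibrils, *LOX* (0.82) and *LOXL4* (3.29) were higher and *LOXL1* (-1.12) was lower, and *LOXL2* did not pass (-0.11, edgeR adjusted p = 0.0662). *LOX* had 11830 and 12679 counts in NRP2-high and 7199 and 7009 in NRP2-low libraries, while *LOXL4* and *LOXL1* had at most 82.

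**Figure D5:**
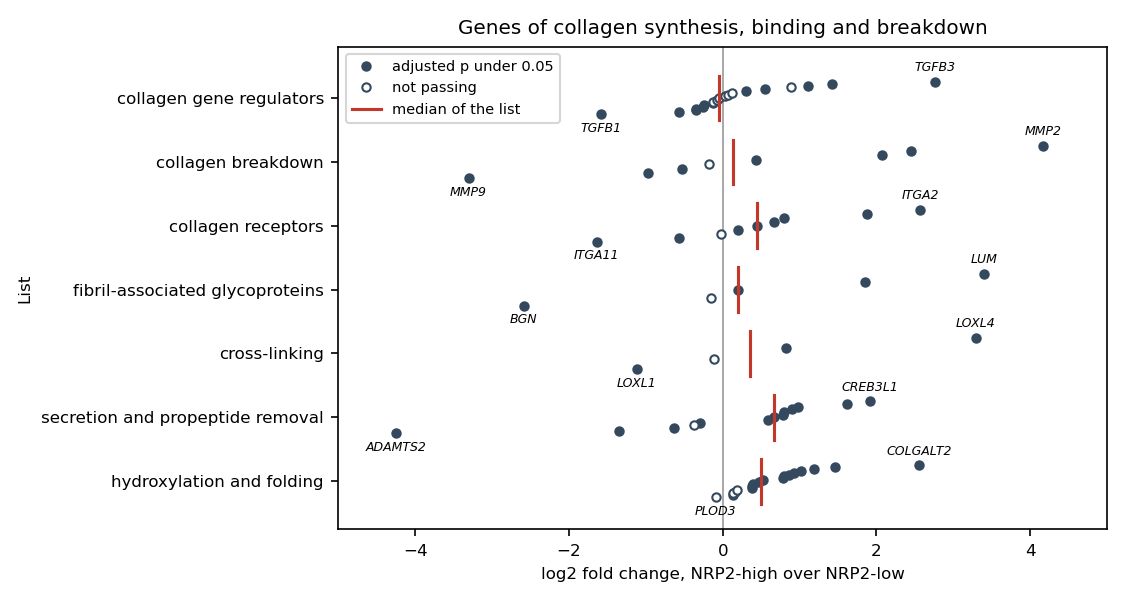
Log2 fold change of NRP2-high over NRP2-low (x axis) for the tested genes of 7 lists of collagen synthesis, binding, breakdown and regulation (y axis), with filled circles for an adjusted p under 0.05, open circles for genes that did not pass and a red bar for the median of each list. The hydroxylation and folding genes have no filled circle below 0, and the other 6 lists have filled circles on both sides.

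Matrix partners, receptors and proteases also moved in both directions, and the counts in these short lists are to be read beside the 28.9% higher and 27.7% lower of all tested genes. Of 5 tested fibril-associated glycoprotein genes, 3 (60.0%) were higher and 1 was lower. *FN1* (fibronectin, on which collagen is laid down) had 72413 and 79334 counts in NRP2-high and 22068 and 21150 in NRP2-low libraries (log2 fold change 1.85, standard error 0.06, edgeR adjusted p = 1.11e-09), and the proteoglycan genes *LUM* (3.41) and *BGN* (-2.59) were called in opposite directions at 146 counts or fewer. Of 9 tested collagen receptor genes, 6 (66.7%) were higher and 2 lower. The collagen-binding integrin genes *ITGA10* (1.88) and *ITGA2* (2.57) and their partner *ITGB1* (0.67) were higher, and *ITGA11* (-1.64) was lower. Of 8 tested genes of collagen breakdown, 4 were higher and 3 lower. *MMP2*, the gelatinase that acts on unfolded and type IV collagen, had 2903 and 3422 counts in NRP2-high and 181 and 179 in NRP2-low libraries (log2 fold change 4.17, standard error 0.09, edgeR adjusted p = 6.27e-11). Its membrane-bound activator *MMP14* (2.07) and *MMP16* (2.45) were higher too, and the other gelatinase gene, *MMP9*, was lower at 29 counts or fewer (-3.31).

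Regulators of collagen transcription showed no prevailing direction. Of 19 tested, 5 were higher, 7 lower and 7 did not pass, with a median log2 fold change of -0.05. The share called, 63.2% with 26.3% higher, was near that of all tested genes (56.5% with 28.9% higher). TGF-β, the best-known inducer of fibrillar collagen genes, has 3 ligand genes that went apart: *TGFB1* had 441 and 478 counts in NRP2-high and 1412 and 1408 in NRP2-low libraries (log2 fold change -1.58, edgeR adjusted p = 1.57e-08), while *TGFB2* (1.42) and *TGFB3* (2.76) were higher. The receptor gene *TGFBR2* was higher by 1.10 on the log2 scale (edgeR adjusted p = 2.06e-08), and *TGFBR1* did not pass (-0.08, adjusted p = 0.289). All SMAD genes of this list were called lower. They were *SMAD2* (-0.25, edgeR adjusted p = 0.00316), *SMAD3* (-0.26, edgeR adjusted p = 0.00254) and *SMAD4* (-0.57, edgeR adjusted p = 1.68e-05). *SP1*, *SP3* and *NFYA*, whose products bind GC and CCAAT boxes, did not pass, with log2 fold changes of -0.05, 0.03 and 0.12. The genes of the other NF-Y subunits were called in opposite directions. *NFYB* was higher (0.55, edgeR adjusted p = 3.93e-05) and *NFYC* was lower (-0.34, edgeR adjusted p = 0.0135). Among the mesenchymal markers, the transcription factor genes *SNAI2* (1.68) and *PRRX1* (1.18) were higher and *CDH2* was lower (-0.59). *VIM* (0.09), *TWIST1* (0.12), *ZEB1* (0.13) and *ZEB2* (0.13) did not pass. Whether these regulators and markers have a part in the collagen differences was not tested.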

How the data were processed

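RNA was sequenced from 4 libraries of sorted BT549 cells, 2 NRP2-high and 2 NRP2-low, after poly(A) selection with a strand-marking kit. The authors aligned reads to hg38 with STAR and counted fragments per gene with featureCounts at a mapping quality above 20. The deposited counts are not normalized. The deposited TPM and FPKM values are the authors' scalings of these counts by gene length and library total. The annotation release and the strand setting of the counting are not given in the sources used here.

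Counts were tested with edgeR 4.0.16 in R 4.3.3 (filterByExpr, TMM factors, quasi-likelihood F test without covariates, Benjamini-Hochberg adjustment over all 15083 tested genes). Replicate libraries differed by more than sampling noise and were counted separately. The chi-square per degree of freedom between replicates was 10.55 in NRP2-high and 1.605 in NRP2-low libraries. The fit did not model the spread of each population apart. CPM use TMM-scaled library sizes, which with the spread between libraries set the precision. TPM served to compare levels of different genes. Alternatives were DESeq2 1.42.0, limma 3.58.1 with voom, RLE factors, other count filters, a 1.5-fold test, normalization without mitochondrial genes and the 10 most abundant genes, a block for replicate number, omission of each library, and limma on log2(TPM + 1), log2(TPM + 0.1) and log2(FPKM + 1). The fitting script was tested on simulated data with few changed genes, all higher, and the same spread in both populations. That setting differs from these data, so it gives no error rate for them.

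Full values were given for chains with adjusted p under 0.05, a log2 fold change of at least 1 in size and a mean TPM of at least 1 in a population, and for their partner chains; lists gave up to 4 genes by adjusted p. *COL25A1*, *PLOD3*, *P3H3*, *PPIB*, *ADAMTS3*, *ADAMTS14*, *TGFBR1*, *SMAD2*, *SMAD3*, *SMAD4*, *SP1*, *SP3*, *NFYA*, *NFYB* and *NFYC* were named after their values were seen. The members and lists were chosen with earlier results of these data known. A planned description of chain proteins was not made. Exon-free stretches between gene starts used GENCODE v44.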

Additional observations from a re-analysis of the deposited data

How the results depend on the processing

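Over 15 alternatives, 314 of 344 values of the 23 called chains kept their call, 30 lost it and none turned direction. The call held under every alternative for 15 of these chains, and *COL28A1* passed under none. Those that lost it were *COL1A2*, *COL4A5* and *COL5A2* (in the test against a 1.5-fold change alone), *COL17A1* (on log2(FPKM + 1) alone), *COL5A1*, *COL18A1*, *COL9A3* and *COL27A1*. The number of chains higher ran from 12 to 18 and lower from 4 to 6. Leaving out 1 library gave 16 to 18 higher and 4 to 6 lower chains, and 3320 to 4849 higher and 3061 to 4625 lower among all genes. The test against a 1.5-fold change called 1441 genes higher and 1364 lower. Higher genes numbered 2594 on log2(TPM + 1) and 2556 on log2(TPM + 0.1), where the median of all genes moved to -0.14 and -0.16. The higher share of all calls was 51.0% on counts, 35.9% and 36.0% on these TPM scales and 40.2% on log2(FPKM + 1). Replicate differences had a correlation of -0.0007 between the populations. That value cannot tell whether libraries of the same number shared a culture or sort. With the replicate block 17 chains were higher and 6 lower, beside 4509 and 4371 of all genes.

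The median log2 fold change of all tested chains was 1.31 with a filter of at least 1 CPM, 0.50 on log2(TPM + 1) and 0.47 on log2(FPKM + 1). In the main fit the median of 24 chains lay in a gap between *COL1A2* (0.67) and *COL21A1* (1.32). The filter of at least 1 CPM dropped *COL27A1*, and the median of the 23 left was the value of *COL21A1*. A pseudocount shrinks genes of low level by construction. Fibrillar chains had a median of 0.67 with that filter, 0.47 on both TPM scales and 0.51 on log2(FPKM + 1), and 0.58 to 0.73 with 1 library left out. Basement membrane chains had 1.13, 1.17 and 1.08 on log2(TPM + 1), log2(TPM + 0.1) and log2(FPKM + 1), FACIT chains 0.94, 1.70 and 0.52, and the other chains 0.30, 0.32 and 0.19. With 1 library left out the other chains had 0.15 (without NRP2-high library 1) to 0.79. The causes of the other moves were not tested. *COL9A3* and *COL27A1*, at 50 counts or fewer per library, lost their calls in 8 alternatives each, and *COL18A1*, at 495 to 884 counts, in 6, while *COL9A2*, at 33 counts or fewer, kept its call in all 15. A fit without 1 library leaves a single library in its population, which is then assumed to vary like the other population.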
